A study of Mus musculus with 16 samples.

Results

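The interferon regulatory factor (IRF) family was followed across macrophages and osteoclasts grown from mouse bone marrow. Its members were taken by gene name from the count tables, and all 8 listed genes (Irf1, Irf2, Irf3, Irf4, Irf5, Irf7, Irf8 and Irf9) were found once in each table, among 21497 genes in the SREBP2 experiment and 22001 in the IRF7 experiment. RNA-seq was available for 16 libraries in 8 groups of 2. In the SREBP2 experiment, cells came from SREBP2floxflox LysM-Cre mice, which lack the sterol regulator SREBP2 in myeloid cells, and from LysM-Cre control mice, so both groups carried the Cre that the lysozyme M promoter drives in macrophages, monocytes and neutrophils. In the IRF7 experiment, cells came from IRF7-deficient mice, in which every cell type carries the knockout, and from C57BL/6 wild-type (WT) mice. All animals were female, and the labels give no age. Bone marrow cells were grown in 23.3 ng/mL M-CSF from L929 supernatant, and they either received 40 ng/mL RANKL for 3 days (labels; the study's methods give a higher dose for mouse cultures), which turns them into osteoclasts, or stayed in M-CSF as macrophages. The study calls its RNA-seq libraries biological replicates without saying if they stem from separate mice or from separate cultures. The p-values measure the spread between these libraries. With 2 libraries on each side, exact permutation tests (two-sided) reach p = 0.333 at best, and all tests below come from models fitted across genes.

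IRF proteins share an N-terminal DNA-binding domain with a row of conserved tryptophans, and they bind GAAA-containing elements in the promoters of interferons and interferon-stimulated genes. IRF3, IRF5 and IRF7 wait in the cytoplasm until sensors of microbial nucleic acid and their kinases activate them, IRF9 is the DNA-binding part of the complex ISGF3 downstream of the type I interferon receptor, IRF1 is an activator induced by interferon gamma and NF-kappaB signals, and IRF2 competes with it at the same sites. IRF4 and IRF8 bind weakly alone and act with partners such as PU.1 or BATF. In the monocyte lineage IRF8 is required for macrophage fate and is known as a brake on osteoclast formation, and interferon beta, through ISGF3, is known to restrain osteoclast precursors.

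Promoter letters are shown for Irf8 and Irf1, a member that fell with RANKL and one that rose in LysM-Cre cells, and for Irf7, the gene deleted in the IRF7 experiment. RefSeq promoters (build GRCm38.p6, the same assembly as mm10) were found for all 8 members in 11 windows of 250 bases before to 50 bases after an annotated start. Each printed stretch of 143 bases covers positions -200 to -58 from that start, 5′ to 3′ on the gene's strand, and capitals mark matches to the gamma-activated site, an interferon gamma response element (GAS, TTCNNNGAA). The Irf8 stretch is chr8:120736158-120736300 (plus strand), the Irf1 stretch chr11:53769814-53769956 (plus strand) and the Irf7 stretch chr7:141266482-141266624 (minus strand).
Irf8: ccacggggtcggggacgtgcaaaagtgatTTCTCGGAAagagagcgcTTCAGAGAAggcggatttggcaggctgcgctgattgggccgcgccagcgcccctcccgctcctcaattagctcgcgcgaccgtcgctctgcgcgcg
Irf1: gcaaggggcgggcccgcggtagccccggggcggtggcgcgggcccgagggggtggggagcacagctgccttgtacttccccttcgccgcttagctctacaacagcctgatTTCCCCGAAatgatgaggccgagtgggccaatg
Irf7: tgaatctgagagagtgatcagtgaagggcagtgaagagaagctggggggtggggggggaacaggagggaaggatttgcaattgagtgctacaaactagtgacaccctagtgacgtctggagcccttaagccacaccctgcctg

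The Irf8 window held 2 GAS matches, at -171 and -153, and the Irf1 window held 1, at -90. Irf2 was the only other member with a match to any of the 4 searched motifs (both strands), with 1 GAS match, 2 matches to the IRF core AANNGAAA and 1 to the ISRE-type repeat GAAANNGAA, which overlaps both cores. No member window held the sterol element TCACNCCAC. The study reports binding of overexpressed SREBP2 at the IRF7 promoter of human monocytes by ChIP-qPCR. This search of short mouse windows for a fixed consensus does not address that binding. Of all 32851 RefSeq promoter windows of this length, 8.3% held a GAS match, 23.9% an IRF core, 8.56% an ISRE-type repeat and 1.24% a sterol element. Irf1, Irf8 and Irf9 have a further RefSeq window each, with no match, and the Irf7 window starts from a RefSeq start that lies 57 bases from the gene start in the count table. A match here is a description of letters.

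Each library of the SREBP2 experiment held between 7703178 and 13387849 counts, and each of the IRF7 experiment between 8178505 and 12746916. The authors kept 10764 and 10788 genes with enough counts, and these were tested. All members were among the kept genes, except that Irf4 was left out of the IRF7 experiment, so 8 and 7 members were tested. The deleted genes followed the labels: Srebf2, which encodes SREBP2, had 1 to 9 counts in the 4 SREBP2-deficient libraries and 2699 to 3756 in the 4 LysM-Cre libraries. An osteoclast marker list of 14 symbols held 13 genes, since Dcstamp was also listed under its older name Tm7sf4. All 13 were measured and were higher with RANKL in each of the 4 genotypes (edgeR adjusted p under 0.05). The macrophage marker list summed to 6408 to 8443 CPM in the 8 RANKL libraries. In M-CSF libraries it summed to 10782 to 11627 CPM in the SREBP2 experiment and 31781 to 41531 CPM in the IRF7 experiment. The list includes Lyz2, the lysozyme M gene whose promoter drives the Cre of both SREBP2-experiment genotypes, and its part in these sums was not tested. Levels are CPM, counts scaled to a common library size, after TMM scaling, or RPKM (CPM per kilobase of annotated exons) where genes are compared with each other. Log2 fold changes (log2FC) are given with a standard error (SE), and a gene is called changed at an edgeR quasi-likelihood p of less than 0.05 after Benjamini-Hochberg adjustment over all tested genes.

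Irf5 carried the largest share of family transcript in all 16 libraries. It made up 37.7% ± 5.5 of the summed RPKM of the 8 members in SREBP2-deficient osteoclasts, 32.4% ± 2.1 in LysM-Cre osteoclasts, 47.4% ± 2.5 in IRF7-deficient osteoclasts and 40.1% ± 1.8 in WT osteoclasts (SD, n = 2 each). In macrophages its share was 57.2% ± 1.3 in SREBP2-deficient, 53.9% ± 6.1 in LysM-Cre, 64.0% ± 1.0 in IRF7-deficient and 57.04% ± 1.25 in WT cells (SD, n = 2 each). Irf4, best known from lymphocytes and plasma cells, lay at the other end, at 0.212 to 1.32 RPKM over the 16 libraries. Counted per read, with no correction for length, Irf5 led in 7 of 8 groups, and Irf7 led in LysM-Cre osteoclasts.

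The summed family level was lower in every RANKL library than in every M-CSF library. The sum was 96.7 and 95.6 RPKM in SREBP2-deficient osteoclasts, against 129 and 121 RPKM in LysM-Cre osteoclasts. In the other experiment it was 60.9 and 64.2 RPKM in IRF7-deficient osteoclasts, against 85.8 and 94.1 RPKM in WT osteoclasts. In neither experiment did the deficient and control osteoclasts overlap, which is weak with 2 libraries a group (exact permutation p = 0.333 at best). Much of the first gap is Irf7, at 16.6 and 18.6 RPKM in SREBP2-deficient and 38.2 and 33.0 RPKM in LysM-Cre osteoclasts, a difference that was not called. Part of the second gap is the deleted Irf7 itself, which held 14.6% ± 3.4 of the WT sum (SD, n = 2). The 8 macrophage libraries lay between 177 and 206 RPKM.

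**Figure D1:**
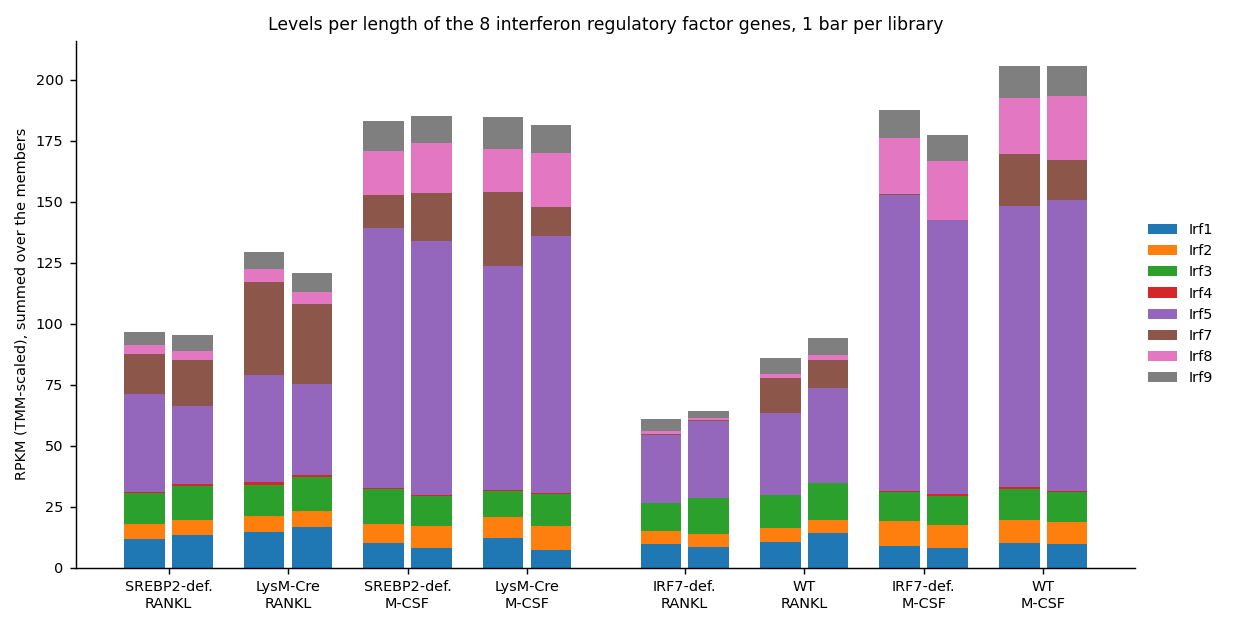
Summed RPKM (vertical axis) of the 8 interferon regulatory factor genes, 1 stacked bar per library, coloured by gene. Bars of RANKL libraries (60.9 to 129 RPKM) are shorter than those of M-CSF libraries (177 to 206 RPKM), and Irf5 is the largest block in each.

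RANKL lowered 4 members in every genotype: Irf8, Irf5, Irf9 and Irf2. Irf8 fell most. SREBP2-deficient cells had 24.6 and 25.6 CPM of Irf8 with RANKL, against 128 and 145 CPM in M-CSF (log2FC -2.44, SE 0.16, edgeR adjusted p = 5.0e-06). In LysM-Cre cells it stood at 37.0 and 32.5 CPM with RANKL, against 122 and 157 CPM in M-CSF (log2FC -2.01, SE 0.15, edgeR adjusted p = 1.2e-05). The RANKL and M-CSF libraries did not overlap for Irf8 in any genotype.

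The same held for the IRF7 experiment. IRF7-deficient cells had 8.75 and 5.36 CPM with RANKL, against 162 and 171 CPM in M-CSF (log2FC -4.56, SE 0.21, edgeR adjusted p = 6.5e-06). In WT cells Irf8 was 11.5 and 11.7 CPM with RANKL, against 160 and 184 CPM in M-CSF (log2FC -3.89, SE 0.21, edgeR adjusted p = 1.0e-05). Even the lowest Irf8 library, an IRF7-deficient osteoclast library, held 62 counts.

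Irf5, which drives inflammatory cytokine genes downstream of Toll-like receptors and MyD88, fell in both mutants, with a log2FC of -1.54 (SE 0.14) in SREBP2-deficient cells and -1.98 (SE 0.13) in IRF7-deficient cells (edgeR adjusted p = 3.8e-05 and 2.1e-05). It was 127 and 108 CPM in LysM-Cre osteoclasts, against 267 and 307 CPM in LysM-Cre macrophages (log2FC -1.28, SE 0.14, edgeR adjusted p = 9.2e-05). In WT cells it was 96.9 and 113 CPM with RANKL, against 335 and 346 CPM in M-CSF (log2FC -1.70, SE 0.13, edgeR adjusted p = 4.2e-05). Every RANKL library lay below every M-CSF library. Irf5 shares 411 bases of its exons (14.1%) with Tnpo3 on the opposite strand, and although the library kit keeps the strand, the strand setting of the counting is not given in the sources used here.

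Irf9, the DNA-binding subunit of ISGF3, had a log2FC of -0.89 (SE 0.16) in SREBP2-deficient and -1.53 (SE 0.19) in IRF7-deficient cells, with edgeR adjusted p = 0.0014 and 3.9e-04. The level was 36.5 and 42.5 CPM in LysM-Cre osteoclasts, against 72.7 and 59.9 CPM in LysM-Cre macrophages (log2FC -0.74, SE 0.15, edgeR adjusted p = 0.0031). It was 33.7 and 38.2 CPM in WT osteoclasts, against 70.4 and 67.2 CPM in WT macrophages (log2FC -0.93, SE 0.18, edgeR adjusted p = 0.0041). The gene was lower in all 8 RANKL libraries than in all 8 M-CSF libraries.

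Irf2, the antagonist of IRF1, changed least of the 4. In SREBP2-deficient and IRF7-deficient cells the log2FC was -0.48 (SE 0.12) and -0.92 (SE 0.11), with edgeR adjusted p = 0.0093 and 3.9e-04. LysM-Cre osteoclasts had 49.4 and 49.0 CPM, against 63.5 and 71.4 CPM in LysM-Cre macrophages (log2FC -0.46, SE 0.12, edgeR adjusted p = 0.011). WT osteoclasts had 42.2 and 40.4 CPM, against 72.3 and 64.2 CPM in WT macrophages (log2FC -0.73, SE 0.11, edgeR adjusted p = 0.0013). Irf2 shifted by less than 1 on the log2 scale in every genotype, although the groups did not overlap.

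**Figure D2:**
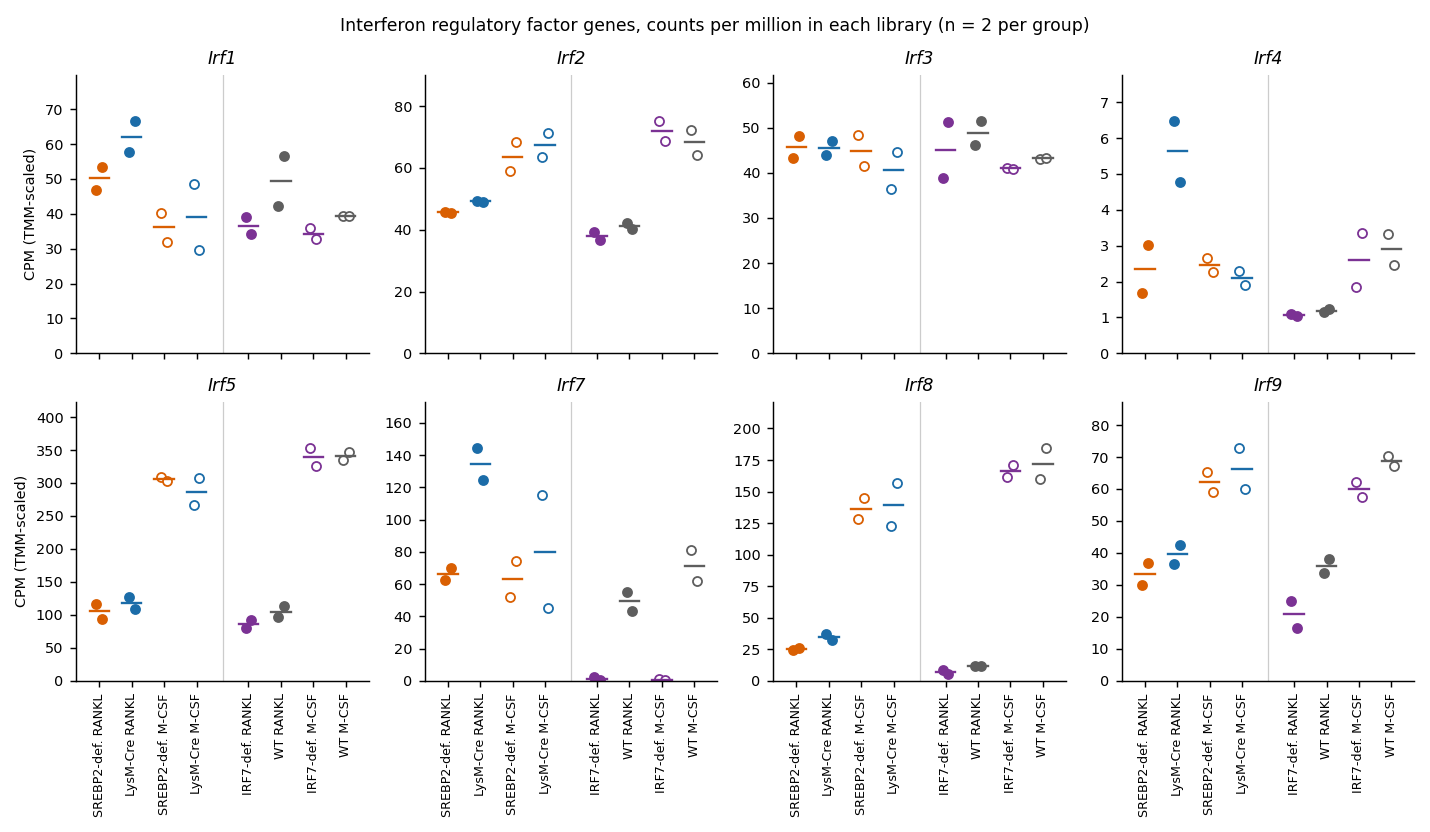
Level of each member in CPM (vertical axis, from 0, own scale per gene) in each library, by group (filled points RANKL, open points M-CSF, line the mean of 2 libraries), with the SREBP2 experiment left of the grey line and the IRF7 experiment right of it. Irf8, Irf5, Irf9 and Irf2 are lower in every RANKL library than in every M-CSF library, and Irf3 stays between 36.5 and 51.5 CPM throughout.

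These counts stand against a wide background, because RANKL moved many genes in each direction. In SREBP2-deficient cells 4 of 8 members fell and none rose, beside 27.6% of all tested genes that fell and 28.6% that rose. In LysM-Cre cells 4 of 8 fell and 2 rose, beside 28.6% and 29% of all genes. In IRF7-deficient cells 4 of 7 fell and none rose, beside 23.5% and 25.8%, and in WT cells 4 of 7 fell and none rose, beside 22.5% and 24.9%. The median log2FC of the members was -0.27 in SREBP2-deficient, -0.15 in LysM-Cre, -0.92 in IRF7-deficient and -0.73 in WT cells, whereas the median of all tested genes was 0.01 in SREBP2-deficient, 0.00 in LysM-Cre, 0.00 in IRF7-deficient and 0.01 in WT cells. The 2 comparisons of an experiment come from the same fit, and in each genotype RANKL and M-CSF cultures were separate libraries.

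Irf3, which is made in most cell types and is activated by phosphorylation, did not pass the test in any genotype. Its 16 libraries ran from 36.5 to 51.5 CPM. The RANKL log2FC of Irf3 was 0.03 (SE 0.15) in SREBP2-deficient, 0.16 (SE 0.14) in LysM-Cre, 0.13 (SE 0.15) in IRF7-deficient and 0.18 (SE 0.15) in WT cells, with edgeR adjusted p between 0.349 and 0.885. Its share of the summed RPKM was 10.6% ± 1.0 in LysM-Cre osteoclasts, against 6.45% ± 1.0 in LysM-Cre macrophages (SD, n = 2 each).

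Irf1 did not pass in SREBP2-deficient, IRF7-deficient or WT cells, with a log2FC of 0.48 (SE 0.23), 0.09 (SE 0.16) and 0.33 (SE 0.16) in that order (edgeR adjusted p = 0.11, 0.66 and 0.12). It rose in LysM-Cre cells, to 57.6 and 66.6 CPM with RANKL, against 48.5 and 29.6 CPM in M-CSF (log2FC 0.67, SE 0.23, edgeR adjusted p = 0.032). The LysM-Cre call rests on few libraries: without M-CSF replicate 2, RANKL replicate 1 or RANKL replicate 2 the adjusted p was 0.162, 0.0642 or 0.172.

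Irf4 was near the limit of these libraries, with 9 to 62 counts in each. SREBP2-deficient cells had 1.67 and 3.02 CPM with RANKL and 2.66 and 2.25 CPM in M-CSF (log2FC -0.05, SE 0.39, edgeR adjusted p = 0.92). It was 6.47 and 4.78 CPM (62 and 55 counts) in LysM-Cre osteoclasts, against 2.29 and 1.92 CPM (29 and 27 counts) in LysM-Cre macrophages, and it rose (log2FC 1.41, SE 0.35, edgeR adjusted p = 0.0076). Both LysM-Cre osteoclast libraries thus lay above the other 6 of the SREBP2 experiment. Without LysM-Cre M-CSF replicate 2 or RANKL replicate 1 the adjusted p of the rise was 0.056 or 0.059. In the IRF7 experiment, where Irf4 was not among the kept genes, it had 1.10 and 1.04 CPM in IRF7-deficient osteoclasts, against 1.84 and 3.37 CPM in IRF7-deficient macrophages, and 1.15 and 1.23 CPM in WT osteoclasts, against 3.34 and 2.46 CPM in WT macrophages. There the RANKL libraries were lower than the M-CSF libraries in both genotypes. A fit with no filter on low counts gave a log2FC of -1.27 (SE 0.47, edgeR adjusted p = 0.027) in IRF7-deficient and -1.31 (SE 0.46, edgeR adjusted p = 0.018) in WT cells. Its unadjusted edgeR p-values, 0.0070 and 0.0044, are those of a normal distribution at these SEs. That fit thus hardly allowed for having 2 libraries a group, and its calls count for less.

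Irf7, which amplifies type I interferon production once interferon has induced it, did not pass with RANKL in SREBP2-deficient, LysM-Cre or WT cells, although some alternatives called it. SREBP2-deficient cells had 62.5 and 70.2 CPM with RANKL, and 51.7 and 74.3 CPM in M-CSF (log2FC 0.07, SE 0.42, edgeR adjusted p = 0.90). LysM-Cre cells had 144 and 125 CPM with RANKL, and 115 and 44.9 CPM in M-CSF (log2FC 0.75, SE 0.41, edgeR adjusted p = 0.17). The M-CSF replicates of LysM-Cre cells stood far apart, and without replicate 1 the rise passed (log2FC 1.58, edgeR adjusted p = 0.0016), as it did with DESeq2's Wald test (adjusted p = 0.036) and with no filter on low counts (edgeR adjusted p = 2.0e-05). That replicate also had the higher sum of 20 genes on a list of ISGF3 targets, 1406 CPM, beside 696 CPM in replicate 2. In WT cells Irf7 was 55.2 and 43.4 CPM with RANKL, against 81.0 and 61.7 CPM in M-CSF (log2FC -0.54, SE 0.31, edgeR adjusted p = 0.19). That fall passed with a replicate block (edgeR adjusted p = 0.039), in a fit of only the groups compared (0.048) and with no filter on low counts (0.0039), and in the other alternatives the adjusted p lay between 0.068 and 0.58. For both LysM-Cre and WT cells the limit given above for the fit with no filter applies.

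**Figure D3:**
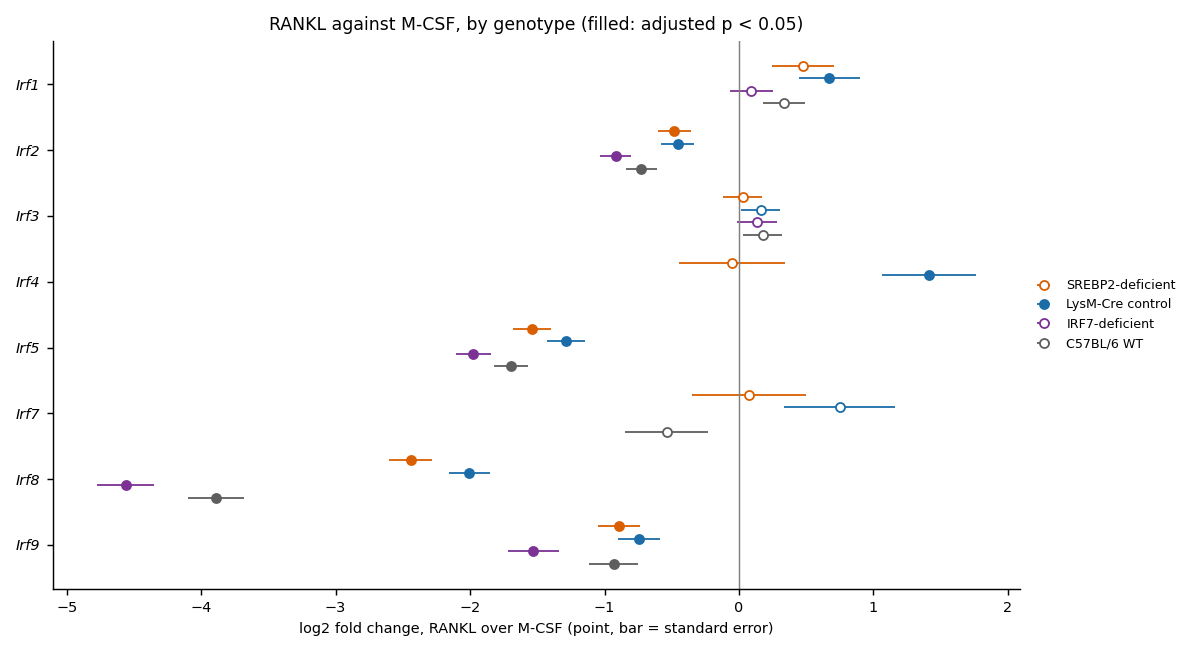
Log2 fold change of RANKL over M-CSF (horizontal axis, bars are standard errors) for each member in the 4 genotypes, filled where the edgeR adjusted p is under 0.05; Irf4 was not tested in the IRF7 experiment and Irf7 is not drawn for the knockout. Irf8 lies at -2.44 in SREBP2-deficient, -2.01 in LysM-Cre, -4.56 in IRF7-deficient and -3.89 in WT cells.

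Other cell types that express IRF genes were checked by marker lists, since in bulk RNA fewer cells of a type and less RNA per cell cannot be told apart. B cells, which express Irf4 and Irf8, were marked by 8 genes that summed to 3.77 to 8.13 CPM in RANKL libraries and 17.6 to 83.9 CPM in M-CSF libraries, and in RANKL libraries Ebf1 was at 0 and 5 of the 8 had at most 2 counts. Of 9 neutrophil genes the sum was 4.51 to 18.9 CPM in RANKL libraries and 65.3 to 1170 CPM in M-CSF libraries. A list of 7 plasmacytoid dendritic cell genes summed to 29.3 to 59.2 CPM in RANKL and 63.0 to 92.4 CPM in M-CSF libraries, and in RANKL libraries Ly6d, Klk1 and Cd209d were at 0. All of these lists were lower with RANKL, as Irf8 was, and their part in the Irf8, Irf5, Irf9 and Irf2 values was not tested. Conventional dendritic cell genes (8 genes, 5.25 to 11.97 CPM in RANKL and 5.68 to 11.8 CPM in M-CSF libraries) overlapped between treatments, and T and NK cell, mesenchymal and red cell lists summed to at most 5.44, 11.2 and 0.760 CPM in any library.

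Genes that feed into the IRF proteins or act with them were read from lists, with counts for each genotype and the genes called in LysM-Cre cells. These counts stand beside the shares of all genes given above, between 24.9% and 29% higher and between 22.5% and 28.6% lower by genotype, and list shares near these are no result about a list. Interferon genes themselves were at the floor: of 11 listed, 3 had rows, and Ifnb1 (interferon beta), Ifng and Ifnab had at most 2 counts in any library. Of 10 receptor and JAK-STAT genes, 1 rose and 3 fell with RANKL in SREBP2-deficient cells, 1 rose and 5 fell in IRF7-deficient cells, and 1 rose and 3 fell in WT cells. In LysM-Cre cells 3 rose and 2 fell (median log2FC -0.01), with Ifngr2 (0.79), Ifngr1 (0.44) and Tyk2 (0.38) higher and Ifnar2 (-0.32) and Jak2 (-0.44) lower. There the receptor chains for interferon gamma thus rose, while of the type I receptor Ifnar2 fell and Ifnar1 was not called. These few genes are no result about receptor classes.

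Upstream of IRF3, IRF5 and IRF7, 24 of 26 listed sensors, adaptors and kinases were measured. With RANKL, 8 of the 24 rose and 9 fell in SREBP2-deficient cells, 8 and 10 did in IRF7-deficient cells, and 6 and 10 did in WT cells. In LysM-Cre cells 8 rose and 6 fell (median log2FC -0.18). Tank, an adaptor of the kinase TBK1, rose most (2.52, SE 0.11, edgeR adjusted p = 9.0e-07), at 304 and 277 CPM with RANKL, against 52.5 and 49.0 CPM in M-CSF. Traf3 (1.14), Traf6 (1.13), Tbkbp1 (0.94), Ticam1 (0.92), Slc15a4 (0.57), Irak1 (0.55) and Azi2 (0.31) also rose. Cgas (-2.34), which detects cytosolic DNA, and its partner Tmem173 (STING, -1.60) fell. So did the Toll-like receptors Tlr7 (-1.31), Tlr4 (-0.80) and Tlr3 (-0.68), and the adaptor Myd88 (-0.41). The listed sensors Tlr9, Ddx58 and Ifih1 were not called, and both shares of the list lie near those of all genes.

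Partners of IRF2, IRF4 and IRF8 lay near the background, with 3 of 10 measured higher and 3 lower in SREBP2-deficient cells, and 4 and 3 in both genotypes of the IRF7 experiment. In LysM-Cre cells 4 were higher and 3 lower (median log2FC 0.42). Spi1, which encodes the IRF8 and IRF4 partner PU.1, rose to 636 and 550 CPM with RANKL, against 251 and 295 CPM in M-CSF (log2FC 1.12, SE 0.14, edgeR adjusted p = 2.1e-04). Jund (1.63), Batf2 (1.18) and the corepressor Irf2bp2 (0.68) rose, and Batf (-1.34), Etv6 (-1.29) and Irf2bpl (-1.19) fell. Spi1 and Irf8 transcripts therefore went in opposite directions.

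Among genes that repress Irf genes or end IRF activity, 3 of 9 measured rose and 4 fell in SREBP2-deficient cells, 4 rose and 5 fell in IRF7-deficient cells, and 3 rose and 3 fell in WT cells. In LysM-Cre cells 3 rose and 3 fell (median log2FC -0.38). Prdm1, which encodes Blimp1, a repressor known to act on Irf8 in osteoclast precursors, had 193 and 197 CPM with RANKL, against 7.59 and 11.5 CPM in M-CSF (log2FC 4.34, SE 0.24, edgeR adjusted p = 2.8e-06). Tnfaip3 (2.20), which encodes the deubiquitinase A20, and Rnf41 (0.34) rose, and Bcl6 (-1.28) and Rbck1 (-0.38) were among those that fell. No test here links the Prdm1 and Irf8 values.

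Of ISGF3 targets, with RANKL none of 19 measured rose and 4 fell in SREBP2-deficient cells (median log2FC -0.51), none of 20 rose and 13 fell in IRF7-deficient cells (median -1.47), and none of 20 rose and 6 fell in WT cells (median -0.74). In LysM-Cre cells 1 of 19 rose and 3 fell (median log2FC -0.17): Ifi27l2a (0.82) rose and Bst2 (-0.98), Dhx58 (-0.87) and Oas1a (-0.72) fell. IRF1 targets, which serve antigen presentation and defence inside cells, had 5 of 16 higher and 3 lower in SREBP2-deficient cells, 4 and 8 in IRF7-deficient cells, and 6 and 4 in WT cells. In LysM-Cre cells 6 were higher and 2 lower (median log2FC 0.22). Gbp7 (2.46), Gbp5 (1.69), Cd274 (1.55), Gbp2 (1.41), Gbp3 (0.93) and B2m (0.78) rose, and Casp1 (-0.62) and Psmb8 (-0.62) fell.

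The SREBP2 genotype was compared next, to see which members depend on SREBP2 in myeloid cells. None of the 8 members passed in osteoclasts, where 4 of all 10764 tested genes did (0.0372%). At an unadjusted p under 0.05 there were 3 members, Irf4, Irf8 and Irf7, beside 390 of all 10764 tested genes. No member was called by DESeq2's Wald test, edgeR's likelihood ratio test or limma-voom. Of the 8 members, 7 were below 0, and the median log2FC was -0.27, beside 0.01 for all genes. Irf7 was 62.5 and 70.2 CPM in SREBP2-deficient osteoclasts, against 144 and 125 CPM in LysM-Cre osteoclasts (log2FC -1.02, SE 0.42, edgeR adjusted p = 1.00). It was 2.02-fold lower, with an unadjusted edgeR p of 0.049. The study counted genes at P under 0.05 with a cutoff on fold change. It also reports lower Irf7 mRNA by qPCR and less IRF7 protein in SREBP2-deficient cells, and more Irf7 mRNA when SREBP2 was overexpressed. The fit with no filter on low counts was the exception, with Irf7 called (edgeR adjusted p = 4.4e-07), and that fit called 132 genes in all. For Irf4 in this comparison it gave an unadjusted edgeR p of 9.9e-04 at SE 0.38, beside 0.0084 at SE 0.37 over the kept genes. It thus hardly allowed for having 2 libraries a group, and its calls count for less.

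For Irf8 the values were 24.6 and 25.6 CPM in SREBP2-deficient osteoclasts, against 37.0 and 32.5 CPM in LysM-Cre osteoclasts (log2FC -0.47, SE 0.16, edgeR adjusted p = 1.00). For Irf4 they were 1.67 and 3.02 CPM, against 6.47 and 4.78 CPM (log2FC -1.24, SE 0.37, edgeR adjusted p = 1.00). The libraries of the genotypes did not overlap for 5 members, namely these 3 with Irf1 and Irf2. The share of all tested genes without overlap was not counted, so this count is no result about the members. Irf1 had a log2FC of -0.31 (SE 0.23), Irf9 -0.24 (SE 0.16), Irf5 -0.16 (SE 0.14), Irf2 -0.11 (SE 0.12) and Irf3 0.01 (SE 0.14), all with an edgeR adjusted p of 1.00. On the macrophage marker list 11 of 13 genes were below 0 in the same comparison (median -0.47, 6 with p under 0.05, none called), and its part in the Irf8 value was not tested.

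In macrophages none of the 8 members passed and none had p under 0.05, with 6 genes called of all tested (0.0557%), and DESeq2's Wald test, edgeR's likelihood ratio test and limma-voom called none of them either. The median log2FC of the members was -0.06, and no member's libraries were apart. The largest difference was Irf7, at 51.7 and 74.3 CPM in SREBP2-deficient macrophages, and 115 and 44.9 CPM in LysM-Cre macrophages (log2FC -0.34, SE 0.42, edgeR adjusted p = 1.00). It hung on 1 LysM-Cre library: without replicate 1 it was 0.49. Irf8 stood at 128 and 145 CPM in SREBP2-deficient macrophages, and 122 and 157 CPM in LysM-Cre macrophages (log2FC -0.03, SE 0.14, edgeR adjusted p = 1.00).

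Whether SREBP2 deficiency changes the response to RANKL was asked by the interaction of genotype with treatment. No member and no gene passed (0% of 10764). At an unadjusted p under 0.05 there was 1 member, Irf4 (-1.46, SE 0.53, edgeR adjusted p = 1.00), beside 119 of all genes. DESeq2's Wald test, edgeR's likelihood ratio test and limma-voom called no gene. All 8 estimates were below 0, from -0.03 for Irf2 to -1.46 for Irf4, with Irf7 at -0.67 (SE 0.59), Irf8 at -0.43 (SE 0.21) and Irf5 at -0.25 (SE 0.20). On the macrophage marker list 12 of 13 genes were below 0 too (median -0.46, 2 with p under 0.05, none called), and its part in the members' values was not tested.

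In the IRF7 knockout the targeted gene was nearly absent. Irf7 had 23 and 6 counts in IRF7-deficient osteoclasts (2.12 and 0.519 CPM), against 431 and 566 counts in WT osteoclasts (55.2 and 43.4 CPM). In macrophages it had 11 and 3 counts (0.961 and 0.326 CPM), against 1019 and 753 counts (81.0 and 61.7 CPM). The log2FC was -5.23 (SE 0.45, edgeR adjusted p = 0.020) in osteoclasts and -6.70 (SE 0.49, edgeR adjusted p = 0.0067) in macrophages. Which exons the allele lacks is not given in the sources used here, and 45 bases of Irf7 exons overlap Phrf1 on the opposite strand, so the source of the remaining counts was not tested. With 2 libraries a group the call itself was not stable: it was lost in 9 of 24 refits, among them limma-voom (adjusted p = 0.19 and 0.15) and every refit of the macrophages that left out a library.

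None of the other 6 measured members passed in IRF7-deficient osteoclasts, where 2 of 10788 genes did (0.0185%), Irf7 being 1 of them. All 6 estimates were below 0, and 3 had an unadjusted p under 0.05, beside 317 of all 10788 tested genes. Irf9 was 25.0 and 16.5 CPM in IRF7-deficient osteoclasts, against 33.7 and 38.2 CPM in WT osteoclasts (log2FC -0.80, SE 0.19, edgeR adjusted p = 0.77). Irf8 was 8.75 and 5.36 CPM, against 11.5 and 11.7 CPM (log2FC -0.72, SE 0.22, edgeR adjusted p = 1.00). Irf1 was 38.9 and 34.3 CPM, against 42.2 and 56.6 CPM (log2FC -0.44, SE 0.16, edgeR adjusted p = 1.00). The libraries of the genotypes were apart for these 3, for Irf2 and for Irf5, and again the share of all genes was not counted. Irf5 had a log2FC of -0.28 (SE 0.13), Irf3 -0.12 (SE 0.15) and Irf2 -0.11 (SE 0.11), and DESeq2's Wald test, edgeR's likelihood ratio test and limma-voom called none of the 6. Without a filter on low counts Irf9 was called (edgeR adjusted p = 0.0042), in a fit that called 95 genes. That fit hardly allowed for having 2 libraries a group, judged by its p-values for Irf4. On the macrophage marker list 11 of 13 genes were below 0 as well (median -0.52, 6 with p under 0.05, none called), and its part in these values and in those of the target lists was not tested.

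In IRF7-deficient macrophages the 6 members lay closer to WT, and again 0.0185% of genes passed, Irf7 being 1 of 2. None of the 6 passed, none had p under 0.05, and DESeq2's Wald test, edgeR's likelihood ratio test and limma-voom called none of them. Estimates ran from -0.20 (SE 0.18) for Irf9 and -0.20 (SE 0.16) for Irf1 to 0.08 (SE 0.11) for Irf2. Irf9 was 62.3 and 57.4 CPM in IRF7-deficient macrophages and 70.4 and 67.2 CPM in WT macrophages. The libraries were apart for Irf9, Irf1 and Irf3 here too, though none of them had p under 0.05. The share of all genes that were apart was not counted, so this is no result about the members.

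**Figure D4:**
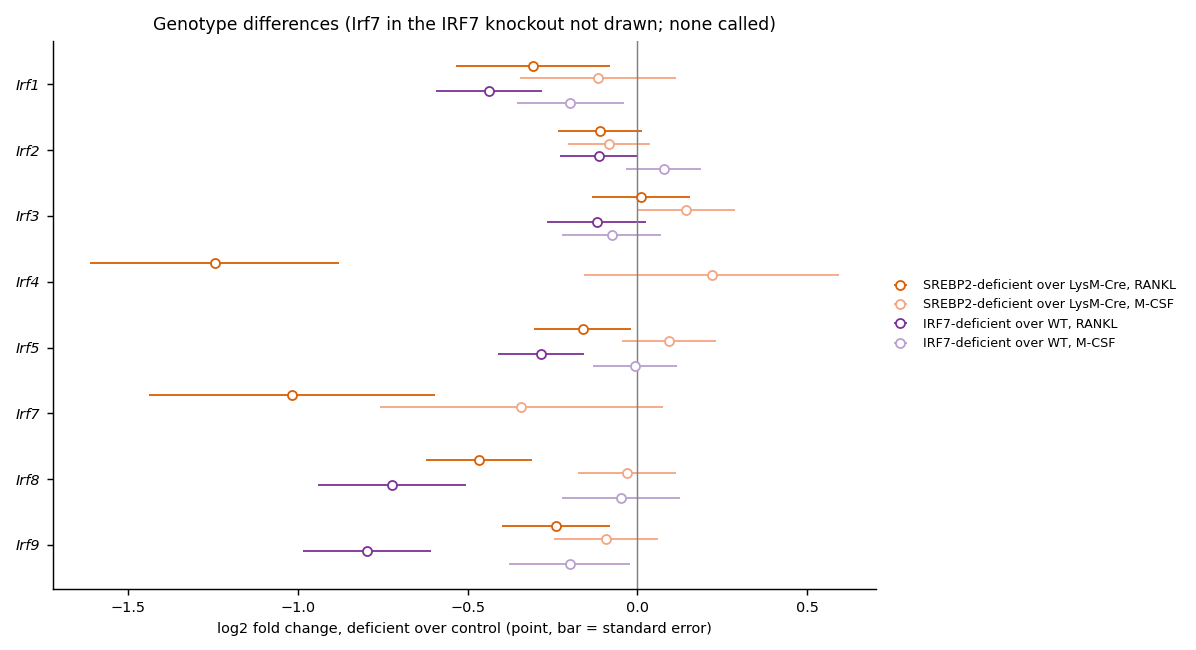
Log2 fold change of deficient over control cells (horizontal axis, bars are standard errors) for each member, in osteoclasts (RANKL) and macrophages (M-CSF) of both experiments; no point drawn has an edgeR adjusted p under 0.05. In osteoclasts 7 of 8 members in the SREBP2 experiment and all 6 drawn in the IRF7 experiment lie below 0.

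Target genes of the family lay mostly below 0 in the mutants, and none was called by edgeR's quasi-likelihood test. In IRF7-deficient osteoclasts all 20 ISGF3 targets were below 0 (median log2FC -1.39, beside 0.00 for all genes). Beside 317 of all 10788 tested genes, 19 of these 20 had an unadjusted p under 0.05. None passed the edgeR quasi-likelihood test after adjustment, whereas DESeq2's Wald test called 6, edgeR's likelihood ratio test 8, limma-voom 0 and the fit with no filter on low counts 18. The last of these carries the limit given for it above. The 4 with the smallest p were Rtp4 (-1.39, SE 0.27), Dhx58 (-1.04, SE 0.20), Xaf1 (-1.15, SE 0.23) and Ifi27l2a (-1.95, SE 0.43), all with an edgeR adjusted p between 0.62 and 0.75. The 20 genes summed to 362 and 189 CPM in IRF7-deficient osteoclasts, against 554 and 638 CPM in WT osteoclasts.

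In SREBP2-deficient osteoclasts all 19 measured ISGF3 targets were below 0 too, by less (median log2FC -0.67, beside 0.01 for all genes). None passed in edgeR's tests over the kept genes, DESeq2's Wald test or limma-voom. The fit with no filter on low counts called 9 of 20, with the limit given for it above. Of the 19, 3 had an unadjusted p under 0.05, Ifi27l2a (-0.57, SE 0.18), Bst2 (-0.39, SE 0.15) and Oas1a (-0.45, SE 0.19), with Cmpk2 (-1.04, SE 0.46) next. Their sums were 546 and 612 CPM in SREBP2-deficient osteoclasts, against 864 and 887 CPM in LysM-Cre osteoclasts. The sums of the genotypes were apart in both experiments. With 2 libraries a group that is weak (exact permutation p = 0.333 at best), and other lists were not counted for it, so it is no result about these targets.

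IRF1 targets leaned the same way. In IRF7-deficient osteoclasts all 16 measured were below 0 (median -0.57), none passed and 6 had p under 0.05, led by Irgm1 (-0.82, SE 0.20), Psmb10 (-0.43, SE 0.13), Psmb8 (-0.60, SE 0.18) and Nlrc5 (-0.72, SE 0.24). In SREBP2-deficient osteoclasts 15 of 16 were below 0 (median -0.34), none passed and 5 had p under 0.05, led by Igtp (-0.56, SE 0.19), Tap1 (-0.41, SE 0.16), Gbp2 (-0.93, SE 0.37) and Psmb9 (-0.33, SE 0.13). DESeq2's Wald test, edgeR's likelihood ratio test and limma-voom called none in either comparison. Of all tested genes, 317 of 10788 had p under 0.05 in IRF7-deficient osteoclasts and 390 of 10764 did in SREBP2-deficient osteoclasts. Many genes of both target lists respond to the same interferon signal, so they are not independent of each other.

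In macrophages the lists lay closer to 0. ISGF3 targets had a median log2FC of -0.47 in IRF7-deficient macrophages (18 of 20 below 0, 5 with p under 0.05, none called). Ifi44 (-1.88, SE 0.49), Ifi27l2a (-1.39, SE 0.41), Bst2 (-0.45, SE 0.16) and Isg15 (-0.87, SE 0.35) led. Of all 10788 genes tested there, 141 had p under 0.05. In SREBP2-deficient macrophages the median was -0.27 (18 of 19 below 0, none with p under 0.05, none called). Neither list had a call by DESeq2's Wald test, edgeR's likelihood ratio test or limma-voom in macrophages.

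**Figure D5:**
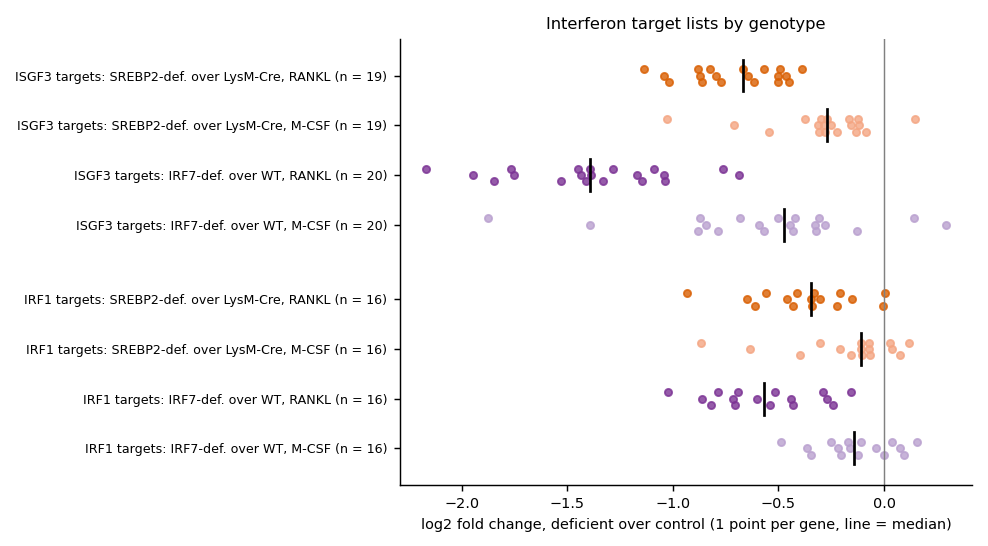
Log2 fold change of deficient over control cells (horizontal axis) for each measured ISGF3 target and IRF1 target, 1 point per gene and a line at the median, by genotype and treatment. All 20 ISGF3 targets in IRF7-deficient osteoclasts and all 19 in SREBP2-deficient osteoclasts lie below 0, with medians of -1.39 and -0.67.

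No gene upstream of the IRF proteins was called by genotype in edgeR's quasi-likelihood test. In IRF7-deficient osteoclasts 5 of 24 sensors, adaptors and kinases had p under 0.05 and none passed, with Tmem173 (-0.65, SE 0.17), Ikbke (-0.51, SE 0.16), Unc93b1 (-0.39, SE 0.12) and Ifih1 (-0.73, SE 0.24) first (median of the list -0.09). In SREBP2-deficient osteoclasts 2 of 24 did and none passed, Tmem173 (-0.60, SE 0.19) and Tlr7 (-0.64, SE 0.23), with a median of -0.07. Stat2, the partner of IRF9 in ISGF3, was at -0.71 (SE 0.23) in IRF7-deficient and -0.59 (SE 0.25) in SREBP2-deficient osteoclasts, neither passing. Usp18, which switches the type I interferon receptor off, was at -1.78 (SE 0.34, edgeR adjusted p = 0.62) and -0.54 (SE 0.35, edgeR adjusted p = 1.00). Of the receptor and STAT genes 2 of 10 had p under 0.05 in each experiment, and the counts over all genes are those given above. DESeq2's Wald test and edgeR's likelihood ratio test each called 1 gene on these lists, on that of repressors in IRF7-deficient osteoclasts, and limma-voom called none.

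The interaction in the IRF7 experiment had no call (0% of 10788 genes). At an unadjusted p under 0.05 there was 1 of 7 members, Irf8 (-0.67, SE 0.28, edgeR adjusted p = 1.00), beside 121 of all genes. Irf9 followed at -0.60 (SE 0.26), then Irf5 at -0.28 (SE 0.18), Irf1 at -0.24 (SE 0.22), Irf2 at -0.19 (SE 0.16) and Irf3 at -0.04 (SE 0.21). On the macrophage marker list 11 of 13 genes were below 0 (median -0.53, 3 with p under 0.05), and its part was not tested. The value of Irf7 (1.47) compares counts that are nearly absent in the knockout. DESeq2's Wald test and limma-voom called no gene, and edgeR's likelihood ratio test called 1, which was no member.

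The depth of the Irf8 fall was compared between the control genotypes in a fit of all 16 libraries, a comparison added after its values were seen. The RANKL log2FC of LysM-Cre cells minus that of WT cells was 1.89 for Irf8 (SE 0.25, edgeR adjusted p = 0.0039), and Irf8 was the only 1 of 7 members called, beside 3.46% of 10598 genes. In RANKL libraries Irf8 stood at 37.0 and 32.5 CPM in LysM-Cre cells, against 11.5 and 11.7 CPM in WT cells. In M-CSF the corresponding values were 122 and 157 CPM, and 160 and 184 CPM. These CPM were scaled within each experiment. By them LysM-Cre cells were higher with RANKL, and both osteoclast groups of the SREBP2 experiment lay above both of the IRF7 experiment. The M-CSF gap (157 against 160 CPM at its nearest) is too narrow to rank the controls across separate scalings. The call held in all 15 refits, with an adjusted p of at most 0.026.

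Irf7 (1.28, SE 0.55) and Irf5 (0.42, SE 0.18) had an unadjusted p of 0.040 and 0.044 in that comparison and did not pass, and the remaining estimates were 0.34 (SE 0.30) for Irf1, 0.27 (SE 0.15) for Irf2, 0.19 (SE 0.25) for Irf9 and -0.01 (SE 0.20) for Irf3. Of 13 macrophage marker genes, 9 were called higher, as Irf8 was, and 1 lower (median 1.72, beside 0.04 for all genes). The higher ones included C1qb (2.14), C1qc (2.26), Lyz2 (2.78), Adgre1 (1.43), Fcgr1 (1.83), C1qa (2.25), Mertk (2.17) and Csf1r (0.73). Cx3cr1 (-2.21) was the reverse. By sum that list was alike with RANKL, at 8082 and 7453 CPM in LysM-Cre and 8443 and 7701 CPM in WT cells, and apart in M-CSF, at 11627 and 10782 CPM in LysM-Cre and 40261 and 31781 CPM in WT cells. The sums include Lyz2, whose promoter drives the Cre of the SREBP2 experiment, and its part in them was not tested. The part of the list in the Irf8 value was not tested either. Of upstream genes Unc93b1 (1.18), which carries Toll-like receptors to endosomes, and Ifnar2 (0.73) were called higher, as was the ISGF3 target Bst2 (0.96), and Socs3 (-2.72), a feedback inhibitor of cytokine receptors, was called lower. The control strains belong to separate experiments and tables, so strain, Cre allele and experiment cannot be told apart.

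Patterns most like each member were sought among the 10597 other genes kept in both tables, by Pearson's r of log2 CPM over the 16 libraries after the mean of each experiment was subtracted. The points share libraries and the RANKL contrast, and r is a description. Irf8 was most like C1qb (r = 0.995), Ap1s2 (0.994) and Apobec1 (0.994), C1qb being a complement subunit of macrophages. Irf5 was most like Arrb2 (0.995), Bin2 (0.995) and Pald1 (0.995), and Irf2 most like Slc11a1 (0.989), Sash1 (0.987) and Lpar6 (0.987). Among the members, Irf2 and Irf8 had r = 0.98, Irf5 and Irf8 0.97, and Irf8 and Irf9 0.93, values that repeat the RANKL fall these genes share.

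Neighbours of the other members were as follows. Irf9 was most like Trim21 (r = 0.988), Lgals9 (0.983) and Dhx58 (0.982), Irf7 most like Oasl1 (0.861), Oas1g (0.788) and Oas2 (0.782), and Irf1 most like Gbp9 (0.904), Mob3c (0.887) and Gbp2 (0.883). Part of the Irf7 pattern is the knockout itself. Irf3 was most like Tmem11 (0.914), Cops7a (0.891) and Gadd45gip1 (0.886), and Irf7 and Irf8 had r = 0.03. Irf4 has no likeness, since it was kept in 1 table only. Within 1 experiment at a time the order of neighbours changed: of these 21 genes, 1 stayed among the first 3 of its member in the SREBP2 experiment and 6 did in the IRF7 experiment.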

How the data were processed

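Whole-number read counts per gene, deposited by the authors in 1 table per experiment, were used as they stand. The submitters' processing notes name bcl2fastq 1.8.4, fastp, STAR 2.7.3a and edgeR with the mm10 build. Libraries came from a stranded mRNA kit. Read counter, strand setting of the counting and gene annotation were not given in the sources used here. Values of log2 CPM deposited by the authors were not used in a test. Each table was fitted in edgeR 4.0.16 (R 4.3.3; TMM, robust quasi-likelihood, 1 coefficient per group, 4 residual degrees of freedom) over the kept genes, with Benjamini-Hochberg adjustment. SEs are the log2FC divided by the square root of F. RPKM uses exon unions of GENCODE M21, whose coordinates equal the deposited ones for all 8 members. Alternatives were DESeq2 1.42.0 (size factors and Wald test), edgeR's likelihood ratio test, limma-voom (limma 3.58.1), 2 other filters, a fit of only the groups compared, a replicate block, and leaving out each library. The 8 members are named in every comparison, with the 4 genes of smallest p and the called genes of each list where a list is described, and the 3 most alike genes. A few genes that this rule would name are not reported here. Members and lists were chosen with earlier results of these data known. The tests were tried on simulated data with known changes, with the same spread for all genes and changes only in genes with higher counts. That trial does not cover low counts such as those of Irf4, or genes with a wider spread. Figures used matplotlib 3.10.9 (Python 3.11.15).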

Additional observations from a re-analysis of the deposited data

Results flagged for a closer look

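The fall of Irf8 with RANKL differed between the control genotypes in the test of the difference itself, by 1.89 on the log2 scale (LysM-Cre response minus WT response, SE 0.25, edgeR adjusted p = 0.0039), with all 4 RANKL libraries lower than their M-CSF libraries. Irf4, which the authors' filter left out of the IRF7 experiment, differed by 2.69 in the same test run with no filter on low counts (SE 0.55, edgeR adjusted p = 0.016): both LysM-Cre RANKL libraries (62 and 55 counts) were above both M-CSF libraries (29 and 27 counts), while both WT RANKL libraries (9 and 16 counts) were below both M-CSF libraries (42 and 30 counts). The comparison of the controls was added after its values were seen, so neither p-value is that of a planned test. Strain, Cre allele and experiment cannot be told apart in either. The check for a sample far from the others needs groups of at least 4 and was not run.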

How the results depend on the processing

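Over all comparisons and the alternatives run, 21 member values passed and were refitted 255 times: 0 turned in direction and 18 lost the call, all 18 in Irf1, Irf2, Irf4 or Irf7. Irf5 (48 of 48), Irf9 (48 of 48) and Irf8 (63 of 63) kept every call. Of 795 refits of the 61 values that did not pass, 36 turned in direction and 11 passed. With no filter on low counts 1 member was called in SREBP2-deficient osteoclasts (Irf7) and 2 in IRF7-deficient osteoclasts (Irf7 and Irf9), in fits that called 132 and 95 genes. Within an experiment these fits hardly allowed for having 2 libraries a group, judged by their p-values for Irf4. Limma-voom called 0 members in IRF7-deficient osteoclasts and 0 in IRF7-deficient macrophages, and the fit of only the groups compared called 0 in IRF7-deficient osteoclasts. With a library left out, the members called ran from 3 (without M-CSF replicate 2 or RANKL replicate 1) to 7 for RANKL in LysM-Cre cells, from 0 (without either WT library) to 1 in IRF7-deficient osteoclasts and from 0 to 0 in IRF7-deficient macrophages (1 in the fit of all libraries for both). Of 21 most alike genes 6 stayed in the IRF7 experiment by itself and 1 in the SREBP2 experiment by itself. The cause of these changes was not tested. Directions that turned when a library was left out all belonged to values that did not pass. In the SREBP2 interaction they were Irf1 -0.59 to 0.12, Irf2 -0.13 to 0.0847, Irf3 -0.29 to 0.0050 and Irf9 -0.31 to 0.0078. In the IRF7 interaction they were Irf3 -0.26 to 0.14. In the RANKL response of SREBP2-deficient cells they were Irf3 -0.0809 to 0.14, Irf4 -0.54 to 0.31 and Irf7 -0.16 to 0.36. In the RANKL response of IRF7-deficient cells these were Irf1 -0.0012 to 0.18, Irf3 -0.0813 to 0.32 and Irf7 -0.37 to 1.96. In LysM-Cre minus WT these were Irf3 -0.14 to 0.13. In SREBP2-deficient against LysM-Cre macrophages these were Irf1 -0.43 to 0.28, Irf2 -0.19 to 0.0185, Irf5 -0.0042 to 0.20, Irf7 -0.87 to 0.49, Irf8 -0.20 to 0.16 and Irf9 -0.23 to 0.0528. In SREBP2-deficient against LysM-Cre osteoclasts these were Irf3 -0.0658 to 0.0908. In IRF7-deficient against WT macrophages these were Irf2 -0.0057 to 0.17, Irf5 -0.063 to 0.0487 and Irf8 -0.15 to 0.0561. In IRF7-deficient against WT osteoclasts these were Irf3 -0.34 to 0.0654. With no filter on low counts Irf3 was also turned in LysM-Cre minus WT (6e-04). A replicate block gave 5 members called in place of 4 for RANKL in WT cells (Irf7, edgeR adjusted p = 0.039), and left the number of members called in every other comparison as it was. The labels say nothing of what a number shares, and 2 pairs are too few to show it. Deviations of same-numbered libraries correlated at r = 0.68 and 0.72 between osteoclast groups and at 0.057 to 0.47 in the other pairs, all 12 above 0, which is a hint from the data that same-numbered libraries share something and not from the design. Counts of 9 to 62 limit Irf4, and Irf7 in the knockout had 3 to 23.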
